A study of Homo sapiens with 2 samples.

Results

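The ELL family of transcription elongation factors has 3 genes in the human genome, ELL, ELL2 and ELL3, and PRDM1 binding at these 3 loci was described in U266, an established cell line from a human multiple myeloma, a tumour of plasma cells. A PRDM1 peak was counted for a gene when its summit, the point of highest tag pile-up, lay in the gene body or within 50 kb of it. By this rule 4 of the 9669 peaks in the authors' complete list belonged to the family. ELL3 had 3 peaks, ELL had 1 and ELL2 had 0. The series title concerns ELL3 in activated B lymphocytes, and its design text concerns PRDM1 sites in 2 myeloma lines.

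There were 2 libraries from chromatin immunoprecipitation and sequencing (ChIP-seq). The PRDM1 library came from an immunoprecipitation with the rabbit monoclonal antibody C14A4, and the input library was U266 chromatin with no antibody. Both are labelled U266 and plasma cell lymphoma, with no treatment or time given, although the growth protocol also mentions the NCI-H929 line. After removal of duplicates the PRDM1 library held 7854466 tags and the input 8556458, which is 2.91 and 3.17 tags per kb of the effective genome. Neither library had a replicate. The intervals below therefore cover counting error only, and no difference was tested between conditions. A peak list carries no expression markers, so the labelled cell type was not checked against any.

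PRDM1 (BLIMP-1) is a DNA-binding repressor of the zinc finger kind. It shuts down genes of the B cell stage as B cells turn into antibody-secreting plasma cells. ELL proteins raise the rate at which RNA polymerase II elongates transcripts and are subunits of the super elongation complex, which also holds the kinase P-TEFb. ELL is widely expressed and was named as a fusion partner of MLL in acute leukaemia. ELL2 is abundant in plasma cells, where it promotes the switch from membrane-bound to secreted immunoglobulin heavy chain mRNA. ELL3 is known from testis, from embryonic stem cells and from B cells.

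Promoter sequence is shown for ELL3, where the strongest peak of the family lay, and for ELL, whose single peak lay far from its start. In RefSeq (GRCh38.p14) both genes are on the minus strand. ELL3 starts back to back with SERF2, a small neighbouring gene, and 119 bases separate their starts. These bases and the 119 bases upstream of ELL are printed 5′ to 3′ on the gene strand, with capitals for the motif GAAAG, the core of the sequence that PRDM1 recognises, found on either strand.
ELL3, chr15:43776967-43777085, minus strand: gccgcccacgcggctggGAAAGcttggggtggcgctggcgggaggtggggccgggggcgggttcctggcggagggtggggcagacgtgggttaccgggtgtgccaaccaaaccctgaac
ELL, chr19:18522071-18522189, minus strand: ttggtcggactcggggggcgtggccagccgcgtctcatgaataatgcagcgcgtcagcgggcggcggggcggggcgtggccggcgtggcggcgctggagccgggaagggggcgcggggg
Both stretches are rich in G and C, at 73.1% for ELL3 and 78.2% for ELL.

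The promoter windows searched ran from 250 bases before to 50 after the start. The longer PRDM1 motifs AGNGAAA and GTGAAAG were on neither strand of either window, while 21.9% and 3.95% of 35116 RefSeq promoter windows held them. The core GAAAG, examined after the sequences had been seen, occurred 3 times in the ELL3 window and 0 times in the ELL window. The ELL3 matches began 102 and 161 bases upstream of the start on the gene strand and 225 bases upstream on the other strand, and the printed stretch holds the one at 102. At least 1 match was present in 54.7% of all windows and at least 3 in 7.03%. The core overlaps the motif GTGAAAG by construction. GC content of the 300 base window was 67.7% for ELL3 and 67% for ELL, against a median of 58.7% over all windows. The ELL3 window held 27 CpG dinucleotides and the ELL window 31, against a median of 14. Such values were common. GC content was as high as in ELL3 in 26.1% of all windows and as high as in ELL in 27.8%. For CpG the shares were 28.2% and 20.65%. These matches are letters in a window and were not tested as binding sites. The strongest ELL3 peak was 2347 bp wide, so the window of 300 bases could cover only a small part of it. The rest of the bound region was not searched, and whether the window held the summit was not determined. ELL2 had no entry in the promoter table.

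At ELL3, the shortest of the 3 genes, the region from 44068203 to 44070549 on chromosome 15 (GRCh37) was bound. The PRDM1 library held 329 tags there (95% Poisson interval 294.4 to 366.5). The summit, at 44069697, was inside the gene body as given in whole kb, from 44065 to 44070 kb. It lay 303 bp below the upper end, which is the end where a minus-strand gene starts. Gene ends were known to the nearest kb, so the summit was within 1 kb of the ELL3 start. Whether it truly lay inside ELL3, and which of the starts of ELL3 and SERF2 was nearer, could not be told. The peak was 2347 bp wide, and 40.1% of its tags overlapped at the summit, an implied pile-up of 132 tags. The median pile-up was 31 tags over the filtered list, the 887 peaks that the authors kept at a false discovery rate (FDR) no higher than 5% and a minimum of 50 tags.

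The input predicted 18.8 scaled tags for this region, so the 358 scaled PRDM1 tags were 19.1 times the expected number (17.1 to 21.2, error of the PRDM1 tags only). The median over the filtered list was 10.4. The ELL3 peak had the highest score of all 9669 peaks, 3139.5, where the score is 10 times the −log10 of the authors' p. Another 2 peaks had a score of exactly 3100, a fixed value given by the caller, so the score does not order these 3. It was the fifth by tags and number 44 by the authors' fold at the summit, 82.5. By tags over expected it was number 87 of 9667, or 83 of 885 within the filtered list. The 2 peaks with a score of 3100 had no recovered ratio and were left out of these ranks. Its place near the top of the list was therefore clearest by score and tag number, and less so by ratio to the input.

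The input background at the ELL3 peak was 2.52 times the genome mean, against a median of 1.58 over the filtered list. That value equals 8 input tags in a window of 1000 bp, and equally 80 tags in 10000 bp, the 2 windows the authors' caller used. With the counting error of 8 input tags included, taken as a plain count, the ratio had a 95% binomial interval of 9.56 to 44.5. With 80 input tags it was 14.9 to 24.7. The number of input tags thus limited the precision more than the PRDM1 tags did.

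Another strong peak lay beside ELL3, on chromosome 15 from 44040870 to 44043217, with 206 tags (178.8 to 236.1). Its summit was 22.8 kb outside the lower end of the gene body and 27.5 kb from the summit at the ELL3 start. The 2 peaks were almost the same width, 2348 and 2347 bp, and 39.3% of the tags of this one overlapped at its summit, a pile-up of 81. It held 15.9 times the expected tags (13.8 to 18.2), with a fold of 67.5 and a score of 1807. It ranked number 35 by score and number 33 by tags in the complete list. In GRCh38.p14 the next protein-coding gene on that side is PDIA3, a disulfide isomerase that folds glycoproteins in the endoplasmic reticulum, and it overlaps the end of ELL3. The gene in which this peak lies was not determined, since no positions of other genes in the build of the peaks were used.

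The region at the ELL3 start held 1.6 times the tags of its neighbour, and the 2 intervals of tags did not overlap. The ratios to the input, 19.1 and 15.9, had overlapping intervals of 17.1 to 21.2 and 13.8 to 18.2. The neighbour's background equals 6 input tags in 1000 bp, or 60 in 10000 bp, and with that error its ratio ran from 7.18 to 43.8, or from 11.9 to 21.6. The peaks therefore differed in tag number by more than counting error. A difference in enrichment was not tested, since overlap of intervals does not decide it.

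The third ELL3 peak was weak. It lay on chromosome 15 from 44027192 to 44027998, 37.3 kb outside the lower end of the gene, with 16 tags (9.14 to 26). These tags were 6.2 times the expected number (3.54 to 10.1), near the median of 5.54 over the complete list. Its FDR was 2.69%, so it passed the FDR limit and missed the tag minimum. Its summit was 14.5 kb from that of the 206-tag peak, which held 12.9 times as many tags.

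**Figure D1:**
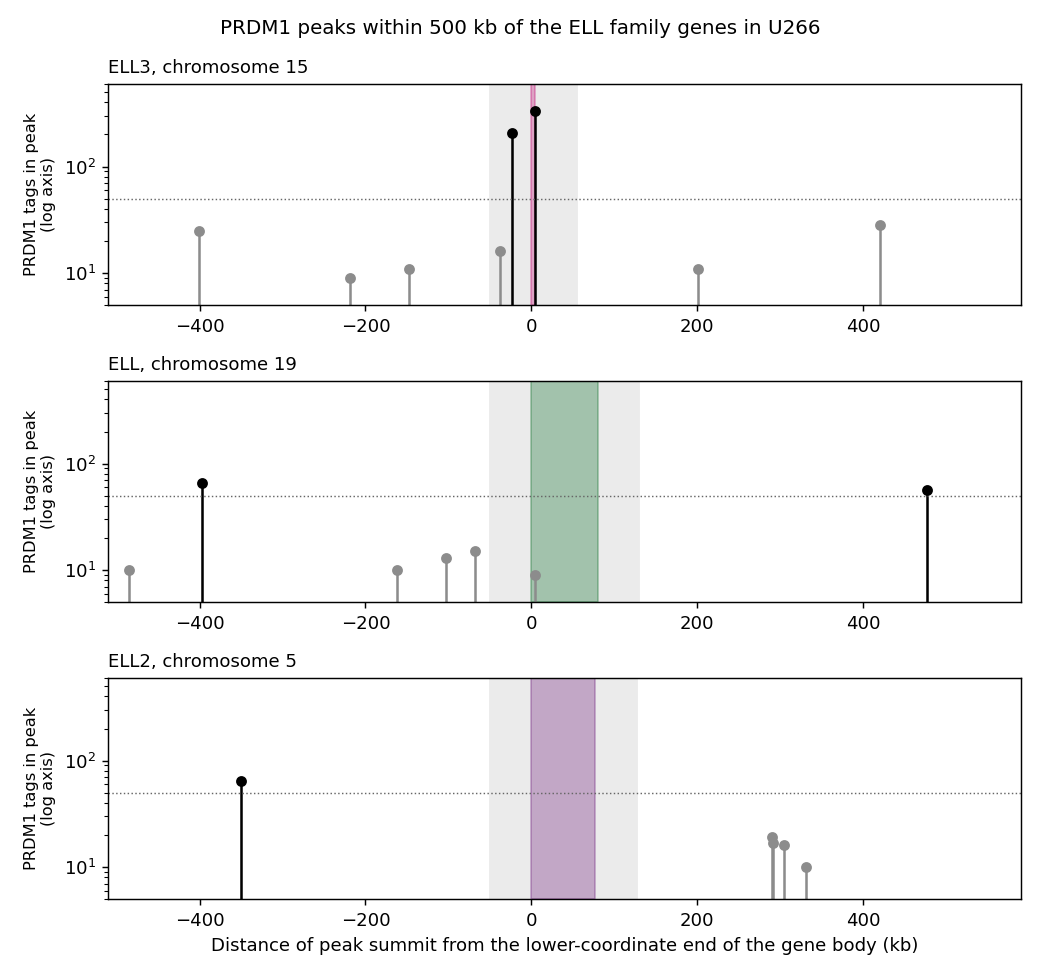
PRDM1 tags per peak (vertical, log axis) against the distance in kb of each summit from the lower-coordinate end of ELL3, ELL and ELL2 (horizontal), with the gene body coloured, the 50 kb on either side in grey, filtered peaks in black, other peaks in grey and the 50-tag minimum dotted. The 329-tag and 206-tag peaks stand at ELL3, ELL has a single peak of 9 tags, and the grey window of ELL2 is empty.

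Of the 4 family peaks, 2 were in the filtered list, both at ELL3, where 9.17% of all 9669 peaks were filtered. An FDR of at most 5% was met by the 3 ELL3 peaks and by 43.5% of the complete list. With so few members these shares are a description. The 3 ELL3 peaks held 551 of the 560 tags in peaks of the family, and the ELL peak held the other 9.

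At ELL, the peak lay on chromosome 19 from 18557573 to 18558081, with a summit at 18557884. This is inside the gene body, which runs from 18553 to 18633 kb, 4.88 kb from the lower end where this minus-strand gene ends and 75.1 kb from the upper end where it starts. It held 9 tags (4.12 to 17.1), the lowest tag count of any peak in the list, shared by 332 peaks. Of those 332 peaks, 2 had an FDR of at most 5%. The ELL peak had an FDR of 47.6%, and only 3.48% of the complete list had one as high. Its tags were 5.58 times the expected number (2.55 to 10.6), close to the list median of 5.54, and its fold of 11.04 equalled the list median. The peak was called at the lowest tag count of the list, so selection may make this ratio and its interval too high.

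The input background at the ELL peak was within 2% of the genome mean, as it was for 31.2% of the list. Its pile-up of 7 tags equalled that of the weak ELL3 peak, from 9 tags against 16. By score it was number 8985 of 9669. At its score or above, the peaks called with PRDM1 and input exchanged were thus 47.6% as many as those called the right way round. No peak lay within 50 kb of the ELL start. The nearest one outside the window was 67.4 kb below the gene, with 15 tags, and the nearest filtered peaks were 397 kb away on either side, with 66 and 56 tags.

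At ELL2, the plasma cell member of the family, no peak was called in the gene body, from 95221 to 95298 kb on chromosome 5, or within 50 kb of it. The window of 177 kb would hold 0.634 peaks at the mean density of the complete list, so a count of 0 is not far from that mean. No peak lay within 100 kb either. The nearest was 213 kb above the gene, where 19 tags were 6.86 times expectation. On the lower side the nearest was a filtered peak 350.2 kb away, from 94869889 to 94871155. It held 64 tags, which was 17.2 times expectation. ELL2 thus lay in a stretch of 640.2 kb between neighbouring summits. Of 9645 such stretches 11.4% were as long, and together these long stretches made up 52.3% of the length between summits. Weaker binding than the caller's limit would not appear in the list.

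**Figure D2:**
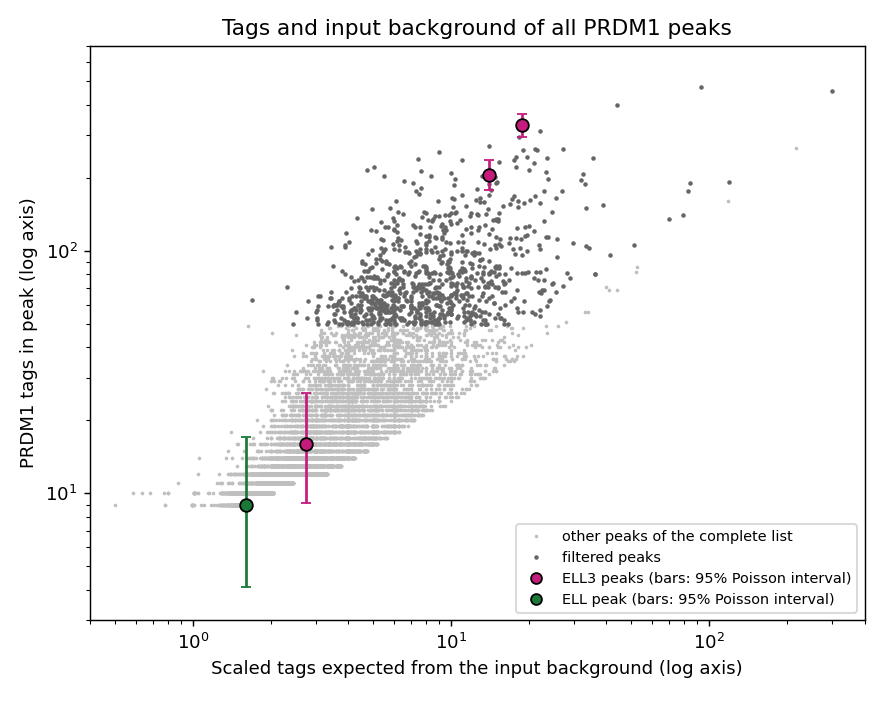
PRDM1 tags (vertical) against the scaled tags expected from the input (horizontal), both on log axes, for the 9667 peaks with a recovered background, with the ELL3 peaks in pink, the ELL peak in green and 95% Poisson intervals as bars. The ELL3 peaks of 329 and 206 tags lie among the filtered peaks with many tags, and other filtered peaks lie above the 206-tag one at a lower expected number, while the ELL3 peak of 16 tags and the ELL peak of 9 lie among the weak ones.

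In a window of 50 kb around the genes, ELL3 had 28.6 peaks per Mb (exact Poisson interval 5.89 to 83.5). ELL had 5.56 (0.141 to 30.9) and ELL2 had 0 (0 to 20.8), where the genome mean was 3.58. ELL3 had 19 filtered peaks per Mb there (2.31 to 68.8) against a mean of 0.329. Over 1000 kb on either side the densities were closer to each other. ELL3 had 15 peaks, or 7.48 per Mb (4.19 to 12.3), ELL had 13, or 6.25 (3.33 to 10.7), and ELL2 had 8, or 3.85 (1.66 to 7.59). The filtered peaks in these wide windows numbered 3, 3 and 2. That is 1.5, 1.44 and 0.963 per Mb for ELL3, ELL and ELL2, each above the mean of 0.329. Their intervals, from 0.309, 0.297 and 0.117 upward, all included that mean. The intervals of the 3 genes overlapped at both window sizes, taking peaks as independent. Overlap of intervals is not a test, and a difference in the number of peaks was not tested. The tag counts at ELL3 and ELL, 329 and 9 for the strongest peak of each, had separate intervals. These counts were not adjusted for width, 2347 and 509 bp, or for background. As a ratio to the input, ELL had 2.55 to 10.6, PRDM1 tags only and from a peak at the lowest tag count of the list. The ELL3 interval overlapped that with 8 input tags counted (9.56 to 44.5) and not with 80 (14.9 to 24.7).

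The nearest peaks just outside the 50 kb limit of ELL3 were 147.2 kb below and 196.4 kb above the gene, each with 11 tags. The nearest filtered peak above was 886 kb away with 74 tags, and the next one below was 1715 kb away with 55. No other filtered peak lay within 800 kb of the 2 strong ELL3 peaks. Another filtered peak within 30 kb was present for 73 of the 887 filtered peaks (8.23%), and within 50 kb for 106 (11.95%). Among filtered peaks of at least 100 tags, 12 of 228 (5.26%) had another such peak within 50 kb. At 200 tags or more, a limit set after the values were seen, the complete list held 37 peaks (0.383%), and 4 of these had another such peak within 50 kb. They formed 2 pairs, the one at ELL3 and one on chromosome 17, from 56415594 to 56417530 with 212 tags and from 56420997 to 56422915 with 233 tags, 5.38 kb apart.

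**Figure D3:**
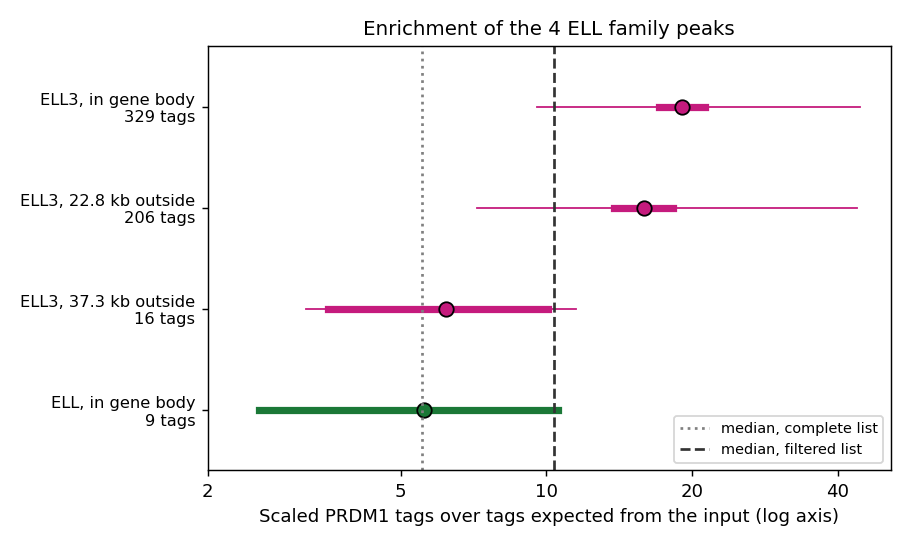
Scaled PRDM1 tags over the tags expected from the input (horizontal, log axis) for the 4 family peaks, with thick bars for the 95% interval of the PRDM1 tags and thin bars for the interval that also counts the input tags, taken as 1000 bp windows for the 2 strong peaks and 10000 bp for the weak ELL3 peak. The points at 19.1 and 15.9 lie to the right of the filtered median of 10.4 (dashed), and their thin bars cross it with 1000 bp windows, whereas with 10000 bp windows the intervals would begin at 14.9 and 11.9, above it. The points at 6.2 and 5.58 lie near the complete-list median of 5.54 (dotted).

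In enrichment over the input, the peaks most like the one at the ELL3 start held far fewer tags. The next 2 above it in the filtered list lay on chromosome 11 from 63639051 to 63640105, with 59 tags at 19.1 times the expected number, and on chromosome 5 from 55192567 to 55194237, with 93 tags at 19.1 times. The next 2 below lay on chromosome 2 from 85165785 to 85167282, with 83 tags at 19 times, and on chromosome 18 from 5293711 to 5295242, with 85 tags at 18.9 times. These 4 were chosen for ratios next to that of ELL3, so their intervals contained the ELL3 value by construction. The ELL3 peak, with 329 tags, was number 5 of the complete list by tags, so neighbours with fewer tags were likely whichever were chosen.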

How the data were processed

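The tools named for these libraries, per the submitters' processing notes, are CASAVA 1.8.2, the aligner Bowtie 0.12.7 and the peak caller MACS 1.4. Peaks were called on merged alignments with MACS 1.4.1 at a p cutoff of 1e-05, per the file headers. Tags are deposited as raw counts per peak after duplicate removal, the score is 10 times the −log10 of the Poisson p-value, the fold is the summit over the local background as a ratio, and the FDR is a percent, all as deposited by the authors and used only to describe peaks. The sources used here name no genome build. No peak passed a GRCh37 chromosome end and 53 passed a GRCh38 end (lengths typed from general knowledge), so positions are given as GRCh37.

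Expected tags were solved from the score with tags scaled by 1.09, the input to PRDM1 ratio, and rounded down, a choice of earlier work on these data. Implied summit heights were whole within 0.06 for 98.7% of 9667 peaks. Simulated scores made with the same formula checked the solving only, not whether the deposited scores follow that formula. Local backgrounds above the genome mean were whole input tags within 0.05 in 1000 bp for 40.5% of 6603 peaks and in 10000 bp only for 43.5%, where chance gives about 10% for each. Intervals that include input tags were added after the data were seen and come from exact binomial limits. They treat the input tags as a plain count and leave out how the caller chose the window. Calculations used Python 3.11.15 and SciPy 1.17.1.

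All 3 genes were named with every peak within 50 kb, together with the 2 peaks next above and below the strongest one in tags over expected. The members and lists were chosen with earlier results of these data known. Other elongation complex genes were not analysed here, because gene positions in GRCh37 were used only for the 3 members. Promoter sequences are RefSeq (GRCh38.p14) and matched 2 of 3 members.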

Additional observations from a re-analysis of the deposited data

How the results depend on the processing

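Of 66 alternative values for 16 results, 47 stayed within 1.5 times a count or rank or within the interval of a ratio. Many of these were counts of 0, which a narrower window or stricter limit could not change, so the total does not measure stability. These values have no sign, so none could change direction. The 4 complete-list peaks became 2 with the gene bodies alone and 2 with flanks of 10 kb, and the 3 at ELL3 became 1 and 1. The 2 filtered peaks, both at ELL3, became 1 under each of these narrower windows, which hold fewer peaks by construction. With flanks of 100 kb ELL had 2 peaks, and at an FDR of at most 20% or 5% it had 0. ELL2 had 0 peaks under each window and limit run, of which only the flank of 100 kb and the count by any overlap could have added a peak. Without scaling of tags, the ratios of the 2 strong ELL3 peaks were 18.8 and 22.9 in place of 15.9 and 19.1. The ELL3 peak ranked number 1 by score, 5 by tags, 44 by fold and 87 by tags over expected, and the ELL peak number 8985 by score, 4599 by fold and 4738 by tags over expected. Ranks by tags over expected are among the 9667 peaks with a recovered background. The ELL3 promoter window held 0 matches of AGNGAAA or GTGAAAG and 3 of GAAAG, a shorter motif added after the sequences were seen. No paired analysis was possible because PRDM1 and input had a single library each. No replicate could be left out. The lowest tag count of any called peak was 9, and whether a deeper library would change the calls at ELL and ELL2 was not tested.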
